A study of Mus musculus with 48 samples.

Results

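The genes described here carry the names of 6 families of pre-mRNA splicing proteins and RNA-binding proteins, and were picked from the array by symbol alone. A probe set was taken where it named a single gene whose symbol consists of Srsf, Hnrnp, Rbm, Sf3, Snrp or U2af followed by lower-case letters and digits only. This gave 59 genes, measured by 80 probe sets, out of the 8252 genes that the array names singly. Of these genes, 9 were Srsf, 16 Hnrnp, 16 Rbm, 8 Sf3, 7 Snrp and 3 U2af genes, and 18 were measured by more than 1 probe set. No measured value entered the choice of a member, but the families were proposed with the treated-to-vehicle ratios of these arrays already known. Those ratios are therefore given as descriptions, and no call among the members is used as support for the group.

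Pregnant mice were injected intraperitoneally on gestation day 9.5, and the right forelimb buds of their embryos were taken 3 h or 12 h later and separated with trypsin into ectoderm and mesoderm. The 16 groups of 3 arrays each were cadmium (cadmium sulfate, 4 mg/kg, dissolved in phosphate-buffered saline) and its PBS vehicle, and acetazolamide (400 mg/kg, in vegetable oil) and its oil vehicle, each in ectoderm and mesoderm at 3 h and at 12 h. The labels used here give no strain. The study's title asks how a pair of teratogens that give a like limb defect compare in gene expression. Several litters went into each RNA, although the series also describes its extracts as not pooled, so the test values below measure the spread between arrays of such RNAs.

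The primary transcript of most genes is cut and rejoined by the spliceosome. The Snrp genes encode protein parts of the small nuclear ribonucleoproteins that recognise splice sites, the Sf3 genes encode parts of the SF3A and SF3B complexes that hold the U2 particle at the branch point, and the U2af genes encode the factor that marks the 3′ splice site. The Srsf genes encode serine/arginine-rich (SR) proteins, which mostly promote the use of nearby exons, while heterogeneous nuclear ribonucleoproteins (Hnrnp) coat nascent transcripts and often repress exons. The Rbm symbol marks only the presence of an RNA-binding motif, so its members include splicing factors and also proteins of RNA stability, transport and transcription.

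The deposited values were ratios to the vehicle arrays of the same comparison, so they hold no expression level, and levels of different genes cannot be set against each other. In every comparison the ratios of vehicle arrays 1 and 2 summed to 2 and that of vehicle array 3 was 1. On the log2 scale used below, vehicle array 3 therefore stood at 0.00 for every gene, and only vehicle arrays 1 and 2 are listed after this point. For a single probe set, vehicle array 3 lies between them by construction. For a gene averaged over several probe sets both can lie below 0, and array 3 is then the highest vehicle array. Groups said not to overlap were judged on all 3 vehicle arrays. Arrays 1 and 2 were taken to share a denominator that array 3 did not. A ratio on array 3 is therefore on another base than those on arrays 1 and 2. A log2 difference is the treated mean minus the vehicle mean. Differences were tested with limma across all 8252 genes, with Benjamini-Hochberg adjustment and a threshold of 0.05. Since each RNA came from a whole tissue layer, fewer cells of a type and less RNA per cell cannot be told apart.

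At 12 h after cadmium, the mesoderm was the tissue and time in which members passed the test. Rbm25 and Hnrnpk were both lower in cadmium than in PBS mesoderm, and 41 of the 59 members lay below 0. In the remaining 7 treated-against-vehicle comparisons 0 members passed. In the 12 h cadmium mesoderm 2.28% of all genes passed the test in either direction and 1.22% in the lower direction, against the 2 members. At an unadjusted p under 0.05 stood 15 of the 59 members (25.4%) and 13.8% of all genes.

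Rbm25 encodes a protein bound to the U1 particle and to splicing regulators, and is known for promoting the use of a pro-apoptotic 5′ splice site of a Bcl2 family transcript. Its log2 ratios were -0.45, -0.92 and -1.83 on the 12 h cadmium mesoderm arrays and 0.09 and -0.10 on PBS arrays 1 and 2. All 3 cadmium arrays lay below all PBS arrays, and array 3, which has its own denominator, had the lowest ratio. Rbm25 fell by 1.06 ± 0.23 (limma SE, 3 arrays per group), a 2.09-fold lower value, with an adjusted p of 0.00894 in limma. Fitted on the arrays of this comparison alone, the adjusted p in limma was 0.205, and with equal weights for all comparisons 0.229. Without array 3 of either the cadmium or the PBS group the adjusted p in limma was 0.267, and the gene was called under 11 of 16 other settings. Leaving out either array 3 gives the same fit, since the array 3 that stays is then alone with its denominator. Both are counted among the 16 settings. Also counted, among the 11, is leaving out a probe set each of Rbm39 and Sf3b1, which does not touch the values of Rbm25. At 3 h in mesoderm Rbm25 stood at 0.10, 0.19 and -0.19 after cadmium and at -0.45 and 0.34 in PBS, and the groups overlapped. In 12 h ectoderm it stood at -0.61, -0.91 and -0.44 after cadmium, but PBS arrays 1 and 2 themselves were at -0.53 and 0.39, so the difference of -0.61 ± 0.45 did not exceed the spread.

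Hnrnpk encodes a poly(C)-binding ribonucleoprotein with roles in splicing, transcription and translation. In 12 h mesoderm its log2 ratios were -0.35, -0.72 and -1.06 after cadmium and 0.21 and -0.25 in PBS. The highest cadmium array lay just under the lowest PBS array, so the groups did not overlap by a narrow margin. Hnrnpk fell by 0.70 ± 0.19 (limma SE, 3 arrays per group), a 1.62-fold lower value. Its adjusted p was 0.0490 in limma, at the edge of the threshold. Fitted on the arrays of this comparison alone, the adjusted p in limma was 0.223, and with equal weights 0.773. The call held under 4 of 16 other settings. Among these 4 is leaving out a probe set each of Rbm39 and Sf3b1, which does not touch the values of Hnrnpk. Without cadmium array 2 or PBS array 1 the adjusted p in limma was 0.179 and 0.134, and 0.399 without array 3 of either group.

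**Figure D1:**
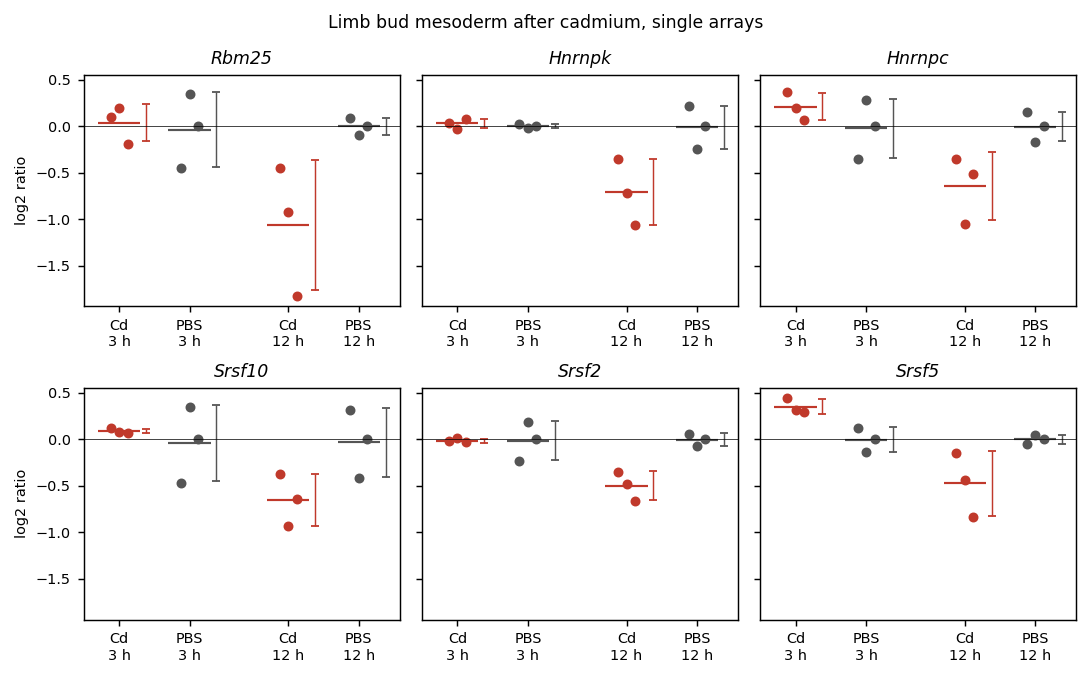
Log2 ratio (vertical axis) of 6 members in limb bud mesoderm, on each cadmium array and to its right each PBS array, at 3 h and then at 12 h; lines are means and bars are SD, n = 3. Rbm25 and Hnrnpk passed the test at 12 h, and their cadmium arrays lie between -1.83 and -0.35 there.

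Other Hnrnp genes lay on the same side in that tissue without passing the test. Hnrnpc, a core protein of the particles that package nascent transcripts, had log2 ratios of -0.36, -1.06 and -0.51 in 12 h cadmium mesoderm and 0.15 and -0.17 in PBS. Its groups did not overlap and it differed by -0.64 ± 0.19, with an adjusted p of 0.0804 in limma. Hnrnpu, a nuclear matrix protein, differed by -0.33, and Hnrnpdl, which binds AU-rich RNA, by -0.31. In all, 13 of the 16 Hnrnp genes lay below 0 in the 12 h cadmium mesoderm with a median of -0.21, where the median over all genes was 0.01.

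The SR protein genes gave a median of -0.30 in the same mesoderm, with 7 of 9 below 0. Srsf10, whose protein represses splicing when dephosphorylated, as after heat shock, stood at -0.37, -0.93 and -0.65 after cadmium and at 0.32 and -0.41 in PBS, so PBS array 2 overlapped the cadmium arrays. Its difference was -0.62 ± 0.27 with an adjusted p of 0.289 in limma. Srsf2, an exon-enhancer binding protein also called SC35, stood at -0.35, -0.48 and -0.66 after cadmium and at 0.06 and -0.07 in PBS. Here the groups were apart, but the difference of -0.50 ± 0.17 had an adjusted p of 0.132. Srsf5 had values of -0.14, -0.44 and -0.84 after cadmium and -0.05 and 0.05 in PBS, and differed by -0.47 ± 0.16 (adjusted p 0.132, limma). Srsf1, the first SR protein described, differed by -0.44 ± 0.21, Srsf11 by -0.30 and Srsf3 by -0.28. Srsf6 differed by -0.17, and Srsf4 and Srsf9 were on the other side, at 0.06 and 0.05.

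Among the Rbm genes of the 12 h cadmium mesoderm, Rbm39, a splicing coactivator with an SR-like domain, stood at -0.46, -0.49 and -0.49 after cadmium and at -0.13 and 0.07 in PBS. The 3 cadmium arrays almost coincided, and the difference was -0.46. Rbm15, an adaptor of the RNA methylation complex, stood at -0.42, -0.31 and -0.45 after cadmium and at -0.16 and 0.14 in PBS, a difference of -0.39. Rbms2, of a subfamily of single-stranded DNA and RNA binding proteins, was opposite. It had 0.27, 0.83 and 0.33 after cadmium and -0.23 and 0.20 in PBS, and its difference was 0.49 ± 0.17 with an adjusted p of 0.143 in limma. Rbms1, of the same subfamily, differed by -0.43, a mean of 2 probe sets whose differences lay 0.45 apart in this comparison. Groups that did not overlap were found for 12 members on the lower side (Hnrnpc, Hnrnpdl, Hnrnpk, Hnrnpu, Rbm15, Rbm25, Rbm39, Rbms1, Snrpa1, Snrpb2, Srsf2 and Srsf5), where 9.51% of all genes did so, and for Rbms2 alone on the higher side (9.8% of all genes).

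The core particle genes had smaller differences in the 12 h cadmium mesoderm, and none passed the test. Snrpb2, a U2 particle protein, differed by -0.26, and its partner Snrpa1 by -0.21. The median was -0.05 over the 8 Sf3 genes and -0.01 over the 7 Snrp genes. The 3 genes of the U2AF family had log2 differences of -0.04 (U2af1), -0.07 (U2af1l4) and 0.07 (U2af2).

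Markers of other cell types differed between the same arrays. Of 8 measured endothelial markers, all 8 lay above 0 in 12 h cadmium mesoderm, and Tie1 (0.63) and Eng (0.58) passed the test. The mean log2 ratio of that list was 0.16 to 0.44 on the cadmium arrays and -0.05 to 0.03 on the PBS arrays. Of 7 red blood cell markers, all 7 lay above 0 and Alas2 (0.53) passed, and the list's mean was 0.03 to 0.38 on the cadmium arrays and -0.17 to 0.12 on the PBS arrays. Their part in the values of Rbm25, Hnrnpk and the other members was not tested, and the ratios do not show which markers were at background.

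The 12 h response in mesoderm was set against the 3 h response in the same tissue. The difference was called for 0 members and for 0.46% of all genes in limma, and 12 of the 59 members and 8.63% of all genes had an unadjusted p under 0.05. Rbm25 differed between the times by -1.14 ± 0.33 (adjusted p 0.147), Hnrnpc by -0.87 ± 0.28 (0.206) and Hnrnpk by -0.73 ± 0.28 (0.378). Srsf5 had the opposite sign at the earlier time. At 3 h it stood at 0.44, 0.32 and 0.29 after cadmium and at 0.13 and -0.14 in PBS, so all cadmium arrays lay above all PBS arrays by a difference of 0.36 ± 0.17. Its response at 12 h minus that at 3 h was -0.83 ± 0.23, with an adjusted p of 0.126 in limma. All 9 Srsf genes had a lower response at 12 h than at 3 h in mesoderm, and 1 of them had an unadjusted p under 0.05. The response was also lower at 12 h for 14 of 16 Hnrnp genes, 44 of all 59 members and 46.1% of all genes.

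**Figure D2:**
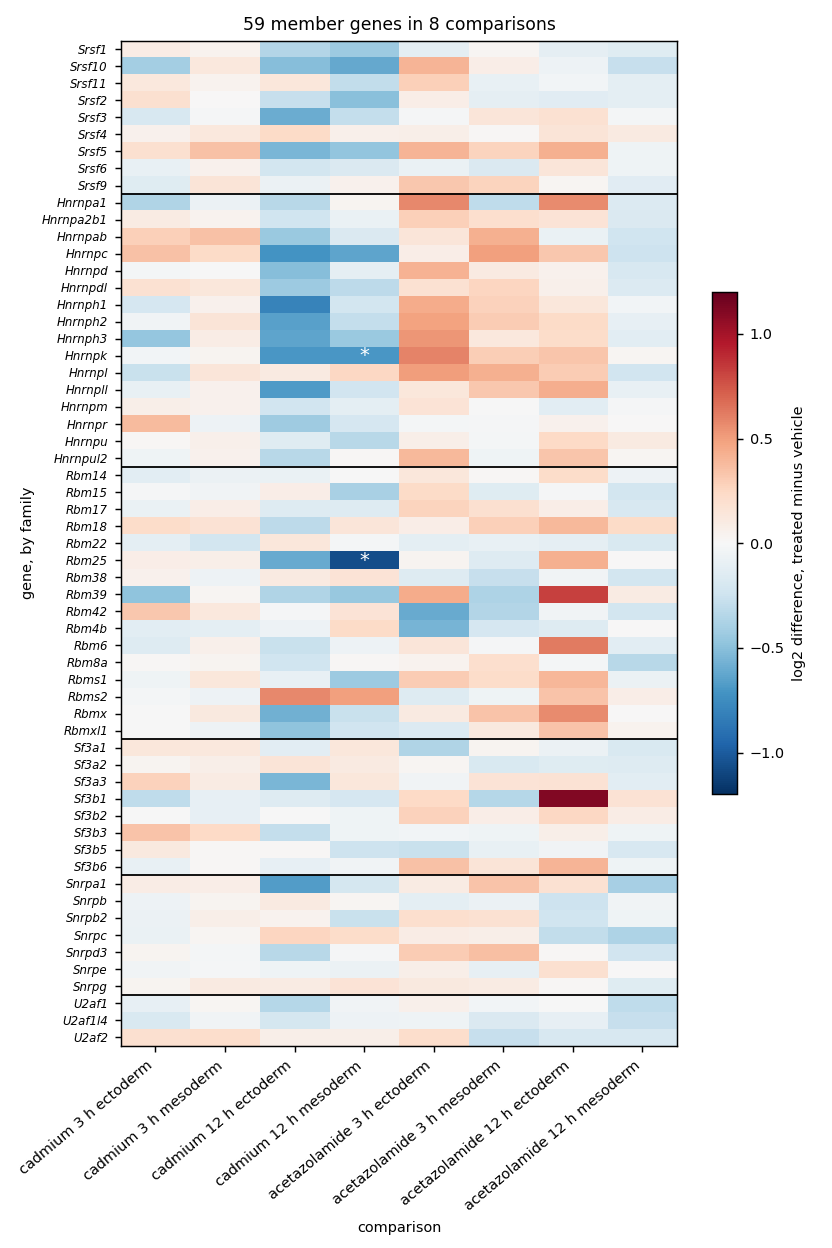
Log2 difference, treated minus vehicle, of the 59 members (down the page, by family) in the 8 comparisons (across); blue and red show the sign and white stars mark adjusted p under 0.05. The only stars are Rbm25 and Hnrnpk in 12 h cadmium mesoderm.

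In mesoderm 3 h after cadmium the members had a median difference of 0.05, with 16 of 59 below 0, and the median was -0.0320 without PBS array 1. None passed the test (0 of 59, and 0% of all genes), and 3 (5.08%, against 3.09% of all genes) had an unadjusted p under 0.05, namely Hnrnpab, Rbm22 and Srsf5. Markers of limb ectoderm and its ridge, the other tissue layer, were above 0 for 14 of 16 with none called, and their mean was 0.10 to 0.29 on the cadmium arrays and -0.01 to 0.00 on the PBS arrays. Their part in the members' values was not tested. Hnrnpab, a CArG-box and RNA-binding ribonucleoprotein, stood at 0.29, 0.42 and 0.33 after cadmium and at -0.04 and 0.04 in PBS, a difference of 0.35 ± 0.14. Cadmium lay wholly above PBS for 5 members (5.45% of all genes) and wholly below for Rbm4b (4.18%). In 3 h ectoderm 0 members and 0% of all genes passed the test, and 0 members (against 3.32% of all genes) had an unadjusted p under 0.05. The members of largest difference there were Rbm39 at -0.48, Hnrnph3 at -0.46 and Srsf10 at -0.41. Only Hnrnpdl and Sf3a3 were wholly higher (5.57% of all genes) and U2af1l4 wholly lower (3.82%).

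In 12 h cadmium ectoderm the members lay further below 0 than in mesoderm, but the arrays spread more. The member median was -0.24 and 45 of 59 members were below 0, where the median over all genes was 0.03 and 42.4% of genes were below 0. The test called 0 members and 0.0242% of all genes, and 4 members (6.78%, against 4.45% of all genes) had an unadjusted p under 0.05, namely Hnrnpdl, Hnrnph1, Rbmx and Sf3a3. Of the 16 Hnrnp genes, 15 were below 0 with a median of -0.44. The residual standard deviation of all genes was 0.223 in this comparison and 0.115 in the mesoderm. The member median was -0.123 without array 3 of either group. All 8 endothelial markers were above 0 and none was called, with a list mean of 0.09 to 0.25 on the cadmium arrays and -0.11 to 0.09 on the PBS arrays. Of the red blood cell markers, 6 of 7 were above 0, with a mean of -0.12 to 0.96 after cadmium and -0.40 to 0.26 in PBS. Limb mesoderm markers, of the other tissue layer, were above 0 for 8 of 11, up to 0.88, with a mean of -0.01 to 0.40 after cadmium and -0.11 to 0.08 in PBS. Their part in the members' values was not tested.

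Hnrnph1, which binds G-rich exon and intron elements, stood at -0.72, -0.24 and -1.44 in 12 h cadmium ectoderm and at -0.08 and 0.08 in PBS. The groups did not overlap, and the difference of -0.80 ± 0.36 had an adjusted p of 0.983 in limma. Hnrnpk stood at -0.65, 0.19 and -1.64 after cadmium and at -0.15 and 0.14 in PBS, so cadmium array 2 lay above every PBS array. The same array stood apart for Hnrnpll, a splicing regulator of lymphocytes, with -0.63, 0.11 and -1.54 after cadmium and -0.16 and 0.15 in PBS. Sf3a3, a subunit of the SF3A complex, stood at -0.43, -0.60 and -0.69 after cadmium and at -0.36 and 0.29 in PBS, and differed by -0.55 ± 0.22. Its groups were apart, and at 3 h in the same tissue its cadmium arrays had lain wholly above PBS. Rbmx, an X-linked ribonucleoprotein that modulates splice site choice, differed by -0.58 ± 0.23. Non-overlapping groups were found for 8 members on the lower side (Hnrnpab, Hnrnph1, Hnrnpm, Hnrnpr, Rbm39, Rbmx, Rbmxl1 and Sf3a3; 5.72% of all genes) and for Rbm22 on the higher side (4.33%).

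The family ratios differed between the 3 arrays of a group, of which array 3 has its own denominator. The median log2 ratio of the 16 Hnrnp genes in 12 h ectoderm was -0.45, -0.19 and -0.86 on the cadmium arrays and -0.29 and 0.23 on PBS arrays 1 and 2. For the 9 Srsf genes it was -0.32, 0.12 and -0.69 after cadmium and -0.01 and 0.01 in PBS. Cadmium array 2 was the highest of the 3 for both families, and PBS array 1 lay below cadmium array 2 for the Hnrnp genes. The Gapdh 3′ to 5′ probe set ratio, a sign of RNA or label quality, was -0.67, 1.80 and 0.44 (log2) on the cadmium arrays and -0.33 and 0.42 on the PBS arrays, with array 2 again apart. In 12 h mesoderm the Hnrnp medians were -0.05, -0.40 and -0.27 after cadmium and 0.12 and -0.13 in PBS, and the Srsf medians were -0.14, -0.48 and -0.35 after cadmium and 0.08 and -0.08 in PBS. There the Gapdh ratio differed by -0.25 between cadmium and PBS. The part of these quality values in the members' ratios was not tested.

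**Figure D3:**
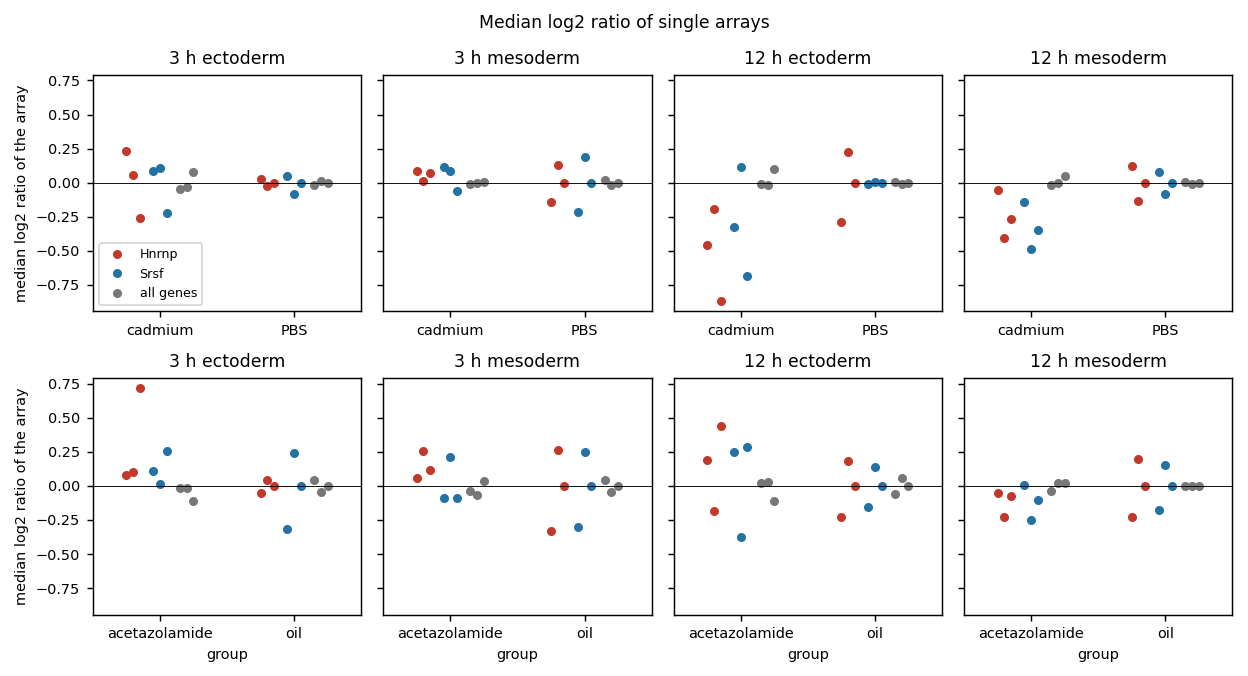
Median log2 ratio on each array of the Hnrnp genes (red), the Srsf genes (blue) and all genes (grey) in the 8 comparisons, treated arrays left of vehicle arrays. In 12 h ectoderm the Hnrnp median is -0.86 on cadmium array 3 and -0.19 on cadmium array 2.

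The response to cadmium at 12 h in mesoderm minus that in ectoderm was called for 0 members (0% of all genes). The largest such difference among the members was that of Sf3a3, at 0.68 ± 0.25 with an adjusted p of 0.9997 in limma. Of the 59 members, 36 (61%) were below 0 in both tissues at 12 h, as were 27.5% of all genes, and the PBS arrays of the tissues were separate.

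After acetazolamide no member passed the test in any of the 4 comparisons. In 3 h ectoderm 0 members and 0.0242% of all genes were called in limma, and 5 members (8.47%, against 6.86% of all genes) had an unadjusted p under 0.05. The smallest was that of Rbm4b, a splicing regulator related to the fly gene lark, with -0.53, -0.31 and -0.82 on the acetazolamide arrays and 0.09 and -0.09 on the oil arrays. Acetazolamide lay wholly below oil, and the difference was -0.55 ± 0.14 (adjusted p 0.180, limma). Rbm42 stood at -0.16, -0.69 and -0.97 after acetazolamide and at 0.12 and -0.13 in oil, a difference of -0.60 ± 0.35. These and 2 further members, Rbm38 and Sf3b5, made 4 that were wholly lower, with 9.09% of all genes.

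The Hnrnp genes were on the higher side in 3 h acetazolamide ectoderm, with 15 of 16 above 0 and a median of 0.34, while all 59 members had a median of 0.12 that was -0.01 without array 3 of either group. Hnrnpk stood at 0.10, 0.37 and 1.28 after acetazolamide and at -0.27 and 0.23 in oil, so oil array 2 overlapped the lowest treated array. Its difference was 0.60 ± 0.26 with an adjusted p of 0.693 in limma. Hnrnph3, a relative of Hnrnph1, stood at 0.15, 0.22 and 1.21 after acetazolamide and at -0.03 and 0.03 in oil. The ratio on array 3, which has its own denominator, was far above the others in both genes. The Hnrnp family median was 0.08, 0.10 and 0.71 on the acetazolamide arrays and -0.05 and 0.05 on the oil arrays. Members wholly higher after acetazolamide numbered 6 (4.76% of all genes), namely Hnrnpab, Hnrnpd, Hnrnph3, Hnrnpul2, Rbms1 and Sf3b2. The 3′ to 5′ ratios were also wholly higher after acetazolamide, at 0.21 to 0.70 against -0.04 to 0.04 in oil for Gapdh and 0.19 to 0.38 against -0.05 to 0.06 for actin. All 7 red blood cell markers and all 8 endothelial markers lay below 0 with none called. The red blood cell mean was -0.75 to -0.08 after acetazolamide and -0.06 to 0.04 in oil, and the endothelial mean was -0.28 to 0.01 after acetazolamide and -0.11 to 0.10 in oil. The part of these values in those of the Hnrnp genes was not tested.

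In 12 h acetazolamide ectoderm the highest differences belonged to Sf3b1, Rbm39 and Rbm6. Sf3b1, the largest subunit of SF3B and the one that contacts the branch point region, stood at 1.12, 1.41 and 0.59 after acetazolamide and at -0.65 and 0.42 in oil. The treated arrays lay wholly above the oil arrays, and the 2.16-fold difference (log2 1.11 ± 0.42) had an adjusted p of 0.605 in limma. Rbmx stood at 0.57, 0.27 and 0.81 after acetazolamide and at -0.29 and 0.24 in oil, and differed by 0.57 ± 0.20. Hnrnpa1 and Rbm39 also differed by more than 0.5, at 0.57 and 0.82. Rbm6, a regulator of alternative exons, had 1.15, 0.45 and 0.26 after acetazolamide and -0.01 and 0.01 in oil. The groups were apart for 7 members on the higher side (8.48% of all genes) and for Snrpb and Snrpc, parts of the small nuclear particles, on the lower side (8.31%). The test called 0 members and 0% of all genes, and 4 members (6.78%, against 7.86% of all genes) had an unadjusted p under 0.05. Here too both 3′ to 5′ ratios were wholly apart, with Gapdh at 0.29 to 0.60 after acetazolamide and -0.27 to 0.26 in oil, and actin at 0.17 to 0.33 and -0.05 to 0.10. The mean of 5 macrophage markers, 4 of them below 0 and none called, was -0.21 to -0.06 after acetazolamide and -0.03 to 0.00 in oil. Their part in the values of Sf3b1, Rbm39 and Rbm6 was not tested.

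Different probe sets of Sf3b1 and Rbm39 did not give the same picture in that comparison. For Sf3b1, probe set 97808_at stood at 1.88, 2.69 and 0.31 after acetazolamide and at -0.95 and 0.57 in oil, a difference of 1.75. Probe set 96777_at of the same gene stood at 0.35, 0.13 and 0.87 after acetazolamide and at -0.35 and 0.28 in oil, a difference of 0.47. The probe sets ranked the treated arrays in opposite order. For Rbm39, probe set 94689_at stood at 2.39, 2.10 and -0.05 after acetazolamide and at -0.72 and 0.48 in oil, a difference of 1.56. Probe set 93267_at stood at 0.48, -0.81 and 0.37 after acetazolamide and at -0.61 and 0.43 in oil, a difference of 0.07. The widest gaps between probe sets of a gene were 1.49 for Rbm39 and 1.28 for Sf3b1, then 1.01 for Hnrnpdl (12 h cadmium ectoderm), 0.93 for Rbmx and 0.86 among the 4 probe sets of Srsf1 (both in 12 h acetazolamide ectoderm).

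**Figure D4:**
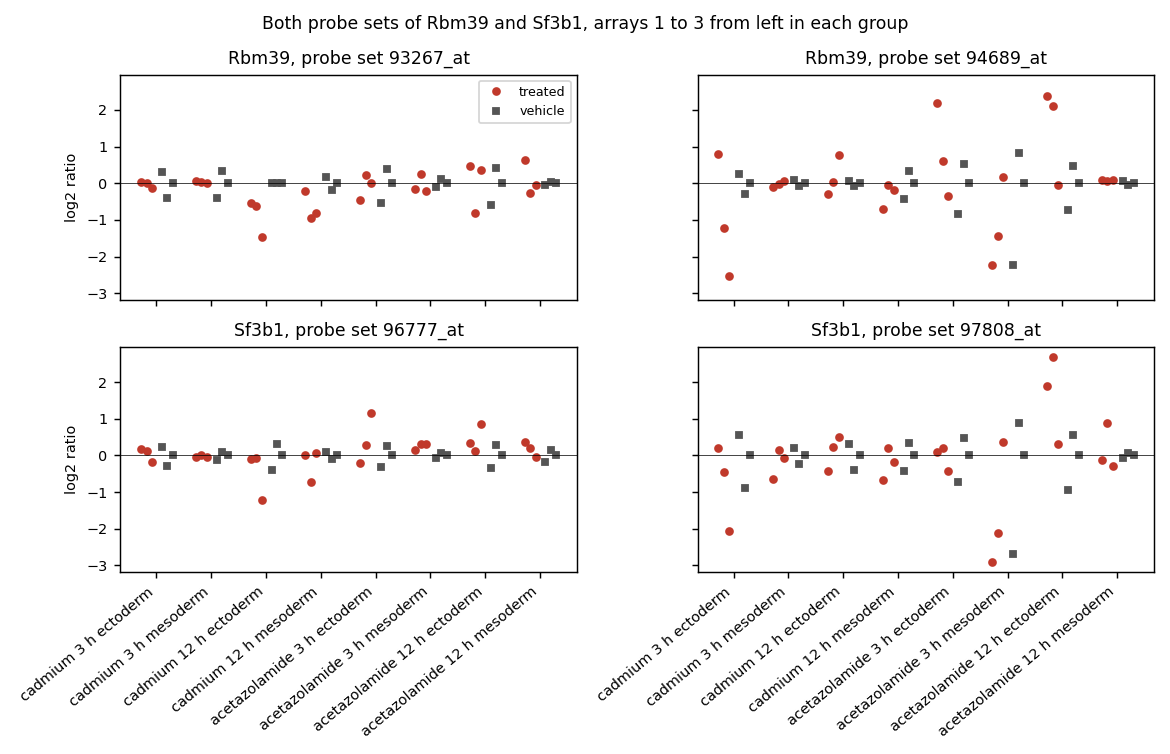
Log2 ratio on arrays 1 to 3 given by each of 2 probe sets of Rbm39 and of Sf3b1; circles are treated arrays and squares to their right are vehicle arrays. In 12 h ectoderm, acetazolamide arrays 1 and 2 reach 2.39 and 2.10 in Rbm39 94689_at but 0.48 and -0.81 in 93267_at.

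In 3 h mesoderm the same probe sets followed single arrays in both groups. Rbm39 94689_at stood at -2.24, -1.44 and 0.17 after acetazolamide and at -2.23 and 0.84 in oil, and Sf3b1 97808_at at -2.90, -2.12 and 0.38 after acetazolamide and at -2.69 and 0.88 in oil. Hnrnpa1, an exon-repressing ribonucleoprotein, stood at -1.07, -0.59 and 0.09 after acetazolamide and at -1.34 and 0.68 in oil. Acetazolamide arrays 1 and 2 and oil array 1 were the low ones in all 3 genes. The actin 3′ to 5′ ratio was 1.55, 1.10 and -0.03 on the acetazolamide arrays and 1.30 and -0.24 on the oil arrays, so the arrays low in these probe sets were the ones high in that ratio. Its part in these values was not tested. The test called 0 members (0.0364% of all genes), and 2 members, Hnrnpab and Rbmx (3.39%, against 7.36% of all genes), had an unadjusted p under 0.05. Members wholly higher numbered 10 (9.33% of all genes) and wholly lower 2 (6.59%). Among those higher, Hnrnpab stood at 0.22, 0.25 and 0.78 after acetazolamide and at -0.19 and 0.15 in oil, and Hnrnpl, which binds CA repeats, at 0.13, 0.25 and 0.90 after acetazolamide and at 0.00 on oil arrays 1 and 2. The ratio on array 3, again to its own denominator, was the highest in both genes. Of 11 limb mesoderm markers 7 lay below 0 with none called, and their mean was -0.21 to -0.09 after acetazolamide and -0.07 to 0.03 in oil. Of 8 endothelial markers 6 lay below 0 with none called, with a mean of -0.28 to -0.06 after acetazolamide and -0.06 to 0.00 in oil. Their part in the members' values was not tested.

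In 12 h acetazolamide mesoderm the members had a median difference of -0.11, with 44 of 59 below 0, where the median over all genes was 0.01. Without acetazolamide array 2 the member median was -0.0168, and without oil array 2 it was -0.0512. Snrpc, a U1 particle protein that helps to bind the 5′ splice site, stood at -0.24, -0.72 and -0.15 after acetazolamide and at -0.01 and 0.01 in oil, and differed by -0.37 ± 0.16. Rbm8a, a core protein of the exon junction complex, stood at -0.20, -0.66 and -0.13 after acetazolamide and at -0.02 and 0.02 in oil. U2af1, the small U2AF subunit that reads the AG at the 3′ splice site, stood at -0.19, -0.65 and -0.09 after acetazolamide and at -0.07 and 0.07 in oil. Array 2 was the lowest acetazolamide array in each, and its Gapdh 3′ to 5′ ratio stood apart, with -0.19, 1.72 and -0.05 on the acetazolamide arrays and -0.46 and 0.69 on the oil arrays. The part of that ratio in these values was not tested. These 3 and Rbm22 were wholly lower (2.48% of all genes), and 0 members were wholly higher (3.43%). The test called 0 members and 0% of all genes, and Snrpc alone (1.69% of members, against 0.788% of all genes) had an unadjusted p under 0.05.

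No Sf3 or Snrp gene passed the test in any comparison. Outside Sf3b1 and Sf3a3, the widest Sf3 differences were 0.41 for Sf3b6, the branch point protein p14, in 12 h acetazolamide ectoderm and -0.36 for Sf3a1 in 3 h acetazolamide ectoderm. Sf3b5 in that ectoderm stood at -0.31, -0.26 and -0.24 after acetazolamide and at 0.08 and -0.08 in oil, while Sf3b2 stood at 0.27, 0.13 and 0.43 after acetazolamide and at 0.03 and -0.03 in oil. Both had groups apart, on opposite sides, within the same complex. Sf3b3 ran from -0.28 in 12 h cadmium ectoderm to 0.34 in 3 h cadmium ectoderm, and Sf3a2 from -0.18 to 0.15. Among the Snrp genes, Snrpa1 had the widest difference, with -0.44, -1.01 and -0.70 in 12 h cadmium ectoderm and -0.55 and 0.39 in PBS, but PBS array 1 lay among the cadmium arrays. Snrpd3, of the Sm ring, stood at 0.28, 0.50 and 0.29 in 3 h acetazolamide mesoderm and at -0.06 and 0.06 in oil, and its groups were apart. The other Sm genes ran from -0.09 to 0.19 (Snrpe), from -0.14 to 0.16 (Snrpg) and from -0.25 to 0.11 (Snrpb) over the 8 comparisons.

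Over the 8 comparisons U2af1 ran from -0.35 in 12 h cadmium ectoderm to 0.06 in 3 h acetazolamide ectoderm, U2af1l4 from -0.28 to -0.04, and U2af2, the large subunit that binds the polypyrimidine tract, from -0.28 to 0.21. U2af1l4 was below 0 in all 8 comparisons, and none of these differences passed the test.

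The agents were compared through their own vehicles, which share no arrays. Averaged over tissues and times, the test called 0 members for cadmium (0.57% of all genes), 0 for acetazolamide (0.739%) and 0 for the difference between the agents (0.751%). At an unadjusted p under 0.05 were 7 members for cadmium (11.9%, against 10.6% of all genes), 8 for acetazolamide (13.6%, against 14.1%) and 12 for the difference (20.3%, against 18.6%). All 16 Hnrnp genes averaged above 0 after acetazolamide, where 57.9% of all genes averaged below 0, and all 16 had a lower mean response to cadmium than to acetazolamide, as did 41.8% of all genes. The 3′ to 5′ ratios were higher than in oil in all 4 acetazolamide comparisons, by 0.41 to 0.59 for Gapdh and 0.23 to 0.52 for actin. After cadmium they differed from PBS by -0.25 to 0.49 for Gapdh and -0.08 to 0.00 for actin. All 8 endothelial markers averaged below 0 after acetazolamide and 6 of 8 above 0 after cadmium. The part of these values in the Hnrnp responses was not tested. The members nearest the threshold in that difference were Rbmx at -0.44 ± 0.12 (adjusted p 0.0659) and Hnrnpk at -0.66 ± 0.19 (adjusted p 0.0774) in limma. In ectoderm, 31 members (52.5%) were above 0 at both times after acetazolamide, as were 27.8% of all genes, and 24 (40.7%) were also below 0 in both cadmium tissues at 12 h, as were 14.5%.

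Members varied more between arrays of 1 group than most genes, a measure that does not use the difference between treated and vehicle arrays. The standard deviation between arrays 1 and 2 was taken as a root mean square over the 16 groups. A group with a wide gap therefore weighs heavily in it. The median of this value was 0.278 over the members and 0.184 over all genes, and 47 of the 59 members were above 0.184. By family the median was 0.291 for Srsf, 0.294 for Hnrnp (15 of 16 genes above the all-gene median), 0.275 for Rbm, 0.267 for Sf3, 0.247 for Snrp and 0.227 for U2af. Srsf11 (0.556), Srsf10 (0.541), Rbm42 (0.520), Rbm39 (0.508), Hnrnpa1 (0.493) and Sf3b1 (0.483) were the most variable, and the lowest member stood at 0.104. In some vehicle groups most members also shared the direction of the gap between arrays. In 12 h oil ectoderm, array 1 was below array 2 for 52 of the 59 members by a median of -0.34, where the all-gene median was -0.12 and 63.1% of genes were below 0. The gap was -0.33 in 12 h PBS ectoderm (47 members below 0, all genes 0.01) and -0.29 in 3 h oil mesoderm (48 members, all genes 0.09). All 16 Hnrnp genes were lower on array 1 in both of these oil groups. In the other vehicle groups array 1 was the lower for 41 members in 3 h PBS mesoderm, 36 in 3 h oil ectoderm, 34 in 12 h oil mesoderm, 27 in 12 h PBS mesoderm and 26 in 3 h PBS ectoderm.

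**Figure D5:**
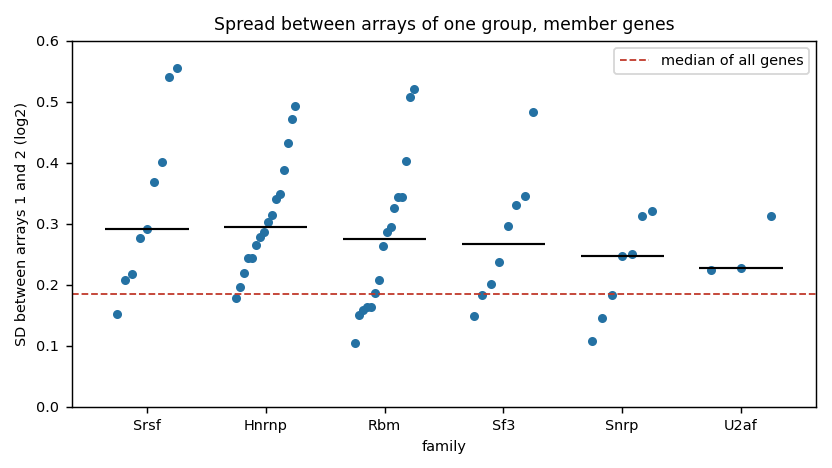
Standard deviation between arrays 1 and 2 of a group (log2 ratio, root mean square over the 16 groups) for each member, by family. The dashed line is the median over all genes, 0.184. Srsf11 and Srsf10 lie highest, at 0.556 and 0.541.

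Other genes of the splicing machinery, taken from lists of core spliceosome proteins (36 of 50 measured), splicing regulators (39 of 48), SR protein kinases and their relatives (10 of 11) and exon junction and decay factors (8 of 20), gave 0 calls in the 8 treated-against-vehicle comparisons and in the 5 combined ones. In 12 h cadmium ectoderm, 29 of 36 core genes, 30 of 39 regulators and 9 of 10 kinases were below 0, with medians of -0.18, -0.29 and -0.40, and of the exon junction and decay factors 4 of 8 were below 0, with a median of -0.09. Clk1, a kinase that phosphorylates SR proteins, differed by -0.77 there, Luc7l3, a U1-associated protein, by -0.84, and Pnn, an exon junction partner, by -0.66. In 12 h cadmium mesoderm the medians were -0.01, -0.08 and -0.08, with 0.06 for the exon junction and decay factors, and Pnn and Luc7l3 differed by -0.61 each. In 12 h acetazolamide ectoderm 9 of 10 kinases were above 0 with a median of 0.29, with Clk1 at 0.57 and Clk2 at 0.46, while 6 of 8 exon junction and decay factors were below 0 with a median of -0.12.

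The promoters of the members were set against those of all genes with a RefSeq window, on the array or not. RefSeq windows of 300 bases around an annotated start, most of each before it, (GRCm38.p6) were found for 52 of the 59 members, 67 windows in all, and compared with 32851 windows of all genes. Members' windows had a median of 25 CpG dinucleotides and 61% G or C, against 7 and 52.7% for all windows. Matches were counted on either strand. GGGCGG (the Sp1 box) was in 64.2% of the members' windows and 35.7% of all windows, CCGGAAG (an ETS site) in 26.9% and 8.86%, TGACG (the core of a cAMP response element) in 49.3% and 20.8%, and CCAAT (the NF-Y box) in 49.3% and 37.4%. TGCACNC or TGCGCNC, the core of the metal response element, was in 56.7% and 25.7%, and TTCNNGAA, a heat shock element core, in 10.4% and 8.52%. CACGTG (the E-box) was in 4.48% and 7.15%, and the palindromic NRF1 site in 1.49% and 0.971%. GC-rich windows hold GC-rich letters more often, and these shares were not corrected for base composition. The windows of Hnrnpk, Hnrnpc and Srsf5 are printed as RefSeq gives them, 5′ to 3′ along the gene's strand, as examples of such promoters picked after their values were seen. The windows of Srsf10 (38 CpG dinucleotides) and Srsf2 (39) are not printed. The window listed for Rbm25 is not printed either. It held 0 CpG dinucleotides and 35% G or C, but lay wholly inside the annotated gene, so it may not be the main promoter. Capitals mark CCAAT or its reverse ATTGG in Hnrnpk and Hnrnpc, and in Srsf5 GGGCGG with its reverse CCGCCC, and also CCGGAAG with its reverse CTTCCGG.
Hnrnpk promoter, chr13:58402068-58402367, minus strand: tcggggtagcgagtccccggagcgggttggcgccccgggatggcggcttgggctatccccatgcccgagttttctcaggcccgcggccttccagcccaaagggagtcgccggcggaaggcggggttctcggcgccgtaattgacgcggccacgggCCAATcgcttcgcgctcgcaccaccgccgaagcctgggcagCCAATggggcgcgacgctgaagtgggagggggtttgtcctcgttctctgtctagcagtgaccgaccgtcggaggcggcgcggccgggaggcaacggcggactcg
Hnrnpc promoter, chr14:52103972-52104271, minus strand: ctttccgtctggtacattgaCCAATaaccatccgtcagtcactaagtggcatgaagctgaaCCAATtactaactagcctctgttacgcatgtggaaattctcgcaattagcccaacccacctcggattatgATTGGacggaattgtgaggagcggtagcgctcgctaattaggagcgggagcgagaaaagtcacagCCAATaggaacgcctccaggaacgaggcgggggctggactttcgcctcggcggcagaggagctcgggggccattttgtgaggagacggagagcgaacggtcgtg
Srsf5 promoter, chr12:80945249-80945548, plus strand: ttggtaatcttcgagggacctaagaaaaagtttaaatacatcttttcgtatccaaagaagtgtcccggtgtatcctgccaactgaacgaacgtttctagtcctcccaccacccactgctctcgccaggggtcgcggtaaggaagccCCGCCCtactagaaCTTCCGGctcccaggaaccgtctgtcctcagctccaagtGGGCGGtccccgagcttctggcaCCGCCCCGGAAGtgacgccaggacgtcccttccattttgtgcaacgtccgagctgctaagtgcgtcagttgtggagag
The Hnrnpk window held 40 CpG dinucleotides and 70.7% G or C, and lay around a start 1226 bases inside the annotated gene. The Hnrnpc window held 22 CpG dinucleotides and 4 CCAAT or ATTGG matches, and the Srsf5 window held 20, with 3 Sp1 and 2 ETS matches, 1 of them overlapping. A match is a description of the letters and not of a factor bound there.

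A further 10 probe sets named a family gene together with another gene or a pseudogene and were not used, among them those of Rbm3, Rbm10, Snrpa and Hnrnpa3. None of these had an adjusted p under 0.05 in any comparison. Hnrnpa1, Rbmx and Rbmxl1 have near-identical copies in the genome, so their probes may take up signal from more than 1 locus.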

How the data were processed

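RNA of limb bud ectoderm and mesoderm was hybridised to 48 Affymetrix MG-U74Av2 arrays, 3 for each of 16 groups. The deposited values were ratios, with no expression levels and no detection calls, and how the authors summarised and scaled the probe sets is not given in the sources used here. In each comparison the deposited ratios of vehicle arrays 1 and 2 summed to 2 (largest deviation 3e-07) and that of vehicle array 3 was 1, so arrays 1 and 2 were taken to share a denominator that array 3 did not; this was inferred from the values.

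The ratios were converted to log2. Of 12488 probe sets, 10855 named 1 gene in the platform annotation, 396 named several and 1237 named none, and probe sets of a gene were averaged over the 8252 genes. Limma 3.58.1 in R 4.3.3 was fitted to all 48 arrays with a block for the denominator, an agent effect for each of the 8 comparisons and a precision weight per comparison, leaving 24 residual degrees of freedom. Adjusted p-values are Benjamini-Hochberg over all 8252 genes, and 13 contrasts were made. Groups that do not overlap are those in which every treated array lies on 1 side of every vehicle array. The precision is limited by 3 arrays per group, where the median half-width of a 95% interval of a member's difference in 12 h cadmium mesoderm was 0.321.

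Members and the lists of other splicing genes and of cell type markers were chosen with earlier results of these data known. Named genes were members past the threshold, the 5 members of largest difference in each comparison, the largest of each family, all Srsf and U2af genes and the genes whose probe sets differed most; further genes were named where a count was small or groups did not overlap. Data were simulated from the 12 h cadmium mesoderm comparison over 8252 genes. There, 75 of 100 changes of 0.5 and 100 of 100 changes of 1 on the log2 scale were recovered. Of 186 calls, 11 were false. Recovery was not measured for the members alone. The median half-width of the interval in that comparison was 0.321 over the members and 0.215 over all genes. The recovered shares may therefore be too high for the members. Alternatives were other weights, blocks, centring, probe set rules and arrays left out. Array numbers were not treated as pairs, since arrays of the same number did not deviate together in every comparison.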

Additional observations from a re-analysis of the deposited data

Results flagged for a closer look

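For 4 members every treated array lay above all vehicle arrays at 3 h and below them at 12 h in the same tissue and agent. Over the 8 pairs of comparisons that differ only in time or only in tissue, these 4 were 6.78% of the members, and 2.99% of all genes switched side in that way. Srsf5 had a log2 difference of 0.355 at 3 h and -0.473 at 12 h in cadmium mesoderm, and Snrpb2 had 0.0743 and -0.265 there. The difference between the times was tested for both and did not pass in limma, at -0.83 ± 0.23 (adjusted p 0.126) for Srsf5 and -0.34 ± 0.16 (adjusted p 0.564) for Snrpb2. Sf3a3 had 0.273 at 3 h and -0.548 at 12 h in cadmium ectoderm, and Rbm8a had 0.198 at 3 h and -0.329 at 12 h in acetazolamide mesoderm. The difference between the times was not tested for Sf3a3 and Rbm8a. All 4 differences rest on 3 arrays per group.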

How the results depend on the processing

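The count of 2 members called in 12 h cadmium mesoderm depended on the fit. It was 0 when all comparisons had equal weight, when array 3 of every group was left out, and when each comparison was fitted on its own arrays. It was 1 without the denominator block, with arrays centred on their median, with probe sets tested singly, with a robust spread, and, chosen after seeing the data, without probe sets whose names end in _f_at, _s_at, _r_at or _g_at, which left 52 members. With a replicate block on the array number it was 9, adding Hnrnpc (adjusted p 0.0266), Hnrnpdl (0.0373), Hnrnpu (0.0396), Rbms1 (0.0344), Rbms2 (0.0481), Srsf2 (0.0288) and Srsf5 (0.0486). The main fit did not take the array numbers as pairs, and whether they pair the samples in that comparison was not settled. The correlation of array 1 minus array 2 between treated and vehicle groups over 8252 genes was 0.651 in that comparison but -0.195 to 0.551 in the other 7. Leaving out 1 array gave 0 to 5 calls. It was 0 without array 3 of the cadmium or the PBS group, 1 without cadmium array 2 or PBS array 1, and 5 without cadmium array 1. In every comparison, leaving out array 3 of the treated or of the vehicle group gives the same fit, which rests on arrays 1 and 2. The adjusted p of Rbm25 ranged from 0.00160 to 0.465 over 16 alternatives, and that of Hnrnpk from 0.0133 to 0.773.

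The count of 0 for the cadmium mean minus the acetazolamide mean became 1 with the replicate block and 1 without the denominator block, and 0 to 2 without 1 array. It was 2 without array 2 of the 12 h cadmium ectoderm, the 12 h oil ectoderm or the 3 h oil ectoderm, or without array 1 of the 12 h PBS ectoderm. The count for 12 h minus 3 h cadmium mesoderm was 0 to 3 without 1 array, with 3 reached without array 1 of the 12 h cadmium mesoderm. Without array 2 of the 12 h oil ectoderm the counts for 12 h acetazolamide ectoderm and for the acetazolamide mean were 1 each, and 0 without any other single array.

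The member median in 3 h acetazolamide mesoderm, 0.03, was 0.133 with only arrays 1 and 2, 0.0657 without the probe sets Rbm39 94689_at and Sf3b1 97808_at (chosen after seeing the data), 0.0724 without the probe sets with a suffix, and -0.0284 to 0.140 without 1 array. It was negative without oil array 1. That in 3 h cadmium mesoderm ranged from -0.0320 to 0.111 without 1 array, and was negative without PBS array 1. In ectoderm the 3 h median ranged from -0.0100 to 0.201 after acetazolamide and from -0.0538 to 0.0940 after cadmium, each changing sign without array 3 of either group. At 12 h the medians kept their sign without 1 array, from -0.334 to -0.123 in cadmium ectoderm, -0.142 to -0.0581 in cadmium mesoderm (nearest 0 without cadmium array 2 or PBS array 1), 0.0412 to 0.233 in acetazolamide ectoderm and -0.156 to -0.0168 in acetazolamide mesoderm. Of 7496 values of single members under alternatives, 17 lost a call, 12 gained one and 17 moved by more than the spread between arrays on the same side of the threshold. The sign changed in 576 (7.68%), 466 of them without 1 array, and the largest reported difference among these was 0.515 in size. No call changed sign. The cause of these shifts was not tested.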
